A study of Homo sapiens with 10 samples.

Results

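The genes described here are 8 genes of androgen metabolism, 6 UDP-glucuronosyltransferases (UGT2B7, UGT2B10, UGT2B11, UGT2B15, UGT2B17 and UGT2B28) and 2 steroid reductases (SRD5A1 and SRD5A3). They were taken by name, all 8 of them, from the 57353 gene rows of an RNA-seq count table of LNCaP-C4-2 cells, a castration-resistant prostate cancer line. The line was transduced with lentivirus to lower or raise CPT1A, the mitochondrial carnitine palmitoyltransferase that commits long-chain fatty acids to oxidation. The non-targeting control (NT, scrambled shRNA, n = 2) and the CPT1A knockdown (KD, CPT1A shRNA, n = 3) were selected in 1 ug/ml puromycin. The empty vector control (EV, n = 2) and the CPT1A overexpression (OE, CPT1A cDNA, n = 3) were selected in 5 ug/ml blasticidin, so in comparisons across the arms (EV versus NT, OE versus KD) vector, drug and line cannot be told apart. All 4 groups were grown in medium with fetal bovine serum. Each group was 1 transduced line, and nothing in the sources names separate transductions, so the p-values measure the spread between samples of a line, which may be technical.

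UGT2B enzymes sit in the endoplasmic reticulum and attach glucuronic acid from UDP-glucuronate to lipid-soluble molecules, which makes them water soluble and ready for export. UGT2B15 and UGT2B17 are the members best known in prostate, where they inactivate dihydrotestosterone and its metabolites androsterone and androstanediol, and androgens are known to lower their transcripts. SRD5A1 is a steroid 5-alpha-reductase that turns testosterone and androstenedione into 5-alpha-reduced androgens. SRD5A3 belongs to the same protein family and is best known as the polyprenol reductase of dolichol synthesis, the lipid on which N-glycans are built.

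The read totals ran from 23555205 to 28615770 counts per sample. Sample KD 2 stood apart from its group, since its counts differed over genes from those of KD 1 and KD 3 by 7.13 and 7.28 times the counting variance (chi-square over its degrees of freedom), against 2.35 between KD 1 and KD 3. OE 2 did so less, at 4.05 and 4.69 against 2.23. Without KD 2 the changes in KD versus NT were 0.45 for both SRD5A1 and SRD5A3, and both stayed called. The targeted gene followed its labels. CPT1A stood at 265.5 and 261.7 counts per 1000000 (CPM) in NT and at 81.25, 86.44 and 86.18 CPM in KD. It stood at 325.7 and 317.7 CPM in EV and at 869.8, 913.8 and 861.1 CPM in OE, where the transgene's own reads may be included. All 5 prostate markers of a list, KLK3 and HOXB13 among them, were expressed, with summed levels of 4710 to 5000 CPM in NT against 6780 to 7520 in KD, with 6380 to 6690 in EV against 9350 to 9680 in OE. Of 6 hepatocyte markers, ALB and APOB had 0 counts in every sample, and the summed level of the list stayed between 1.29 and 2.17 CPM in all samples. Within it TTR, a plasma carrier protein, rose from 0.0755 CPM in NT to 1.05 CPM in KD (log2 fold change 3.67, adjusted p = 4.11e-06, lost without NT 2). The part of TTR in the results was not tested. Other markers of the list went the other way. SERPINA1 was at 0.567 CPM in NT against 0.153 in KD, and HNF4A at 0.306 against 0, both below the filter. APOA1 changed by -0.19 in KD versus NT and was not called. None of 4 immune markers passed the filter on low counts, with a summed level of at most 0.453 CPM. Of the prostate list FOLH1, the prostate-specific membrane antigen, fell by 0.55 in KD versus NT (adjusted p = 7.15e-10) while the other 4 rose, HOXB13 by 0.35 (adjusted p = 5.69e-06, lost without either NT sample). In RNA from a whole culture, fewer cells of a type and less RNA per cell cannot be told apart.

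The 6 UGT2B genes lie in 1 cluster on chromosome 4 of GRCh38, in the order UGT2B17 (chr4:68537173-68576413, minus strand), UGT2B15 (chr4:68646597-68670652, minus), UGT2B10 (chr4:68815994-68832023, plus), UGT2B7 (chr4:69051363-69112987, plus), UGT2B11 (chr4:69199951-69214748, minus) and UGT2B28 (chr4:69280475-69295050, plus). SRD5A3 lies elsewhere on that chromosome (chr4:55346213-55373100, plus), and SRD5A1 lies on chromosome 5 (chr5:6633427-6674386, plus). The UGT2B genes are near-copies of each other, which bears on how far reads can be given to 1 of them. The coding sequences of UGT2B15 and UGT2B17, 1593 bases each, were identical at 96.55% of positions, and those of UGT2B11 and UGT2B28 at 97.04%. UGT2B15 shared only 85.03% with UGT2B7, and SRD5A1 and SRD5A3 shared 58.86% of aligned coding bases. The stretch of coding bases 64 to 213 is shown for UGT2B15 (ENST00000338206.6) and UGT2B17 (ENST00000317746.3), since it has the median number of differences for a window as long as 1 read of 150 bases; the 4 differing bases are in capitals.
UGT2B15: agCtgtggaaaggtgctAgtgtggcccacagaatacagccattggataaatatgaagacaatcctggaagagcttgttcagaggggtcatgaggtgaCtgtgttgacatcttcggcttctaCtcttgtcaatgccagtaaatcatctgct
UGT2B17: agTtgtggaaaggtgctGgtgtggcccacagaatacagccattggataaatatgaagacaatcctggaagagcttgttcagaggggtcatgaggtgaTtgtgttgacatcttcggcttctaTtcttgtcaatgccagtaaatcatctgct
Over all 1444 coding windows of this length the pair differed at 0 to 17 bases, and 6.51% of windows were identical. Of the 150-base windows of the whole transcript, 4.74% of UGT2B15 and 4.03% of UGT2B17 occurred in the other gene, and none of UGT2B7, UGT2B10, UGT2B28 or SRD5A1 occurred in another gene. SRD5A3 shared 34.4% of its windows with an overlapping readthrough gene (ENSG00000288695). How reads that fit several genes were counted is not given in the sources used here. The split between UGT2B15 and UGT2B17 is therefore uncertain, and their counts are also given as a sum. A sum would not recover reads that were left out.

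The promoter bases, 250 upstream of the RefSeq start on GRCh38.p14, are shown for the 3 members that had enough counts to be tested. Capitals mark matches to the motifs searched on both strands, with no overlap between matches. Forkhead factors such as FOXA1 were searched as TGTTTAC. POU2F1 was searched by the letters ATGCAAAT. The TATA box was searched as TATAAA.
UGT2B15, chr4:68670653-68670902, minus strand: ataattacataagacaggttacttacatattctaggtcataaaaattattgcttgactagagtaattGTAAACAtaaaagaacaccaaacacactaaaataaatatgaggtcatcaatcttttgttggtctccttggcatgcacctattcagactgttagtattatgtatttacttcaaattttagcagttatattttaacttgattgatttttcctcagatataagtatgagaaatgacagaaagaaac
SRD5A1, chr5:6633190-6633439, plus strand: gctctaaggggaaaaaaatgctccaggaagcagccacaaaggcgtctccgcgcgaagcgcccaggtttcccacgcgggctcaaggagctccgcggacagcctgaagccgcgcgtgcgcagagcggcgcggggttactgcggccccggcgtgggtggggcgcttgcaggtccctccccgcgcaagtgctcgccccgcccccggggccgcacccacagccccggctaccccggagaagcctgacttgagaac
SRD5A3, chr4:55345992-55346241, plus strand: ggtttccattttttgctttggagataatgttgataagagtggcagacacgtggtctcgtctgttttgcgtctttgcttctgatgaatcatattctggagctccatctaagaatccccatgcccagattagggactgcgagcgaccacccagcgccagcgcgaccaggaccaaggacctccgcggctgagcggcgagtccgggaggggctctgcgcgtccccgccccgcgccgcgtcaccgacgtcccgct
The UGT2B15 window was 28.4% G or C and held TGTTTAC, read on the reverse strand, at position -183 from the start. Windows of the same length upstream of 35116 starts held that motif in 2.98% of cases. The SRD5A1 and SRD5A3 windows were 70.8% and 59.6% G or C and matched none of the motifs, which says only that those letters were not in these windows. The POU2F1 letters occurred in 1.63% of all windows and in none of the 6 member windows at hand. UGT2B10 held the TATA letters at 3 positions (-244, -230 and -179) and UGT2B11 at 2 (-248 and -183), all at the far side from the start. Of all windows, 10.7% had a match. The windows of UGT2B10 and UGT2B11 were 93.1% identical and 29.6% and 31.2% G or C. The shares over all windows are not matched for base content, so these matches do not show TATA boxes in use. UGT2B17 and UGT2B28 had no entry.

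The steroid reductases were expressed in every sample, and the UGT2B genes were close to silent. SRD5A1 had 658 to 1069 counts and SRD5A3 had 587 to 906 counts in each sample. All 6 UGT2B genes together gave 181 of the 256486822 counts in the 10 samples. UGT2B15 took 119 of these, or 65.7% (exact 95% interval 58.3 to 72.6), and UGT2B17 took 48, or 26.5% (20.2 to 33.6). UGT2B11 took 10, with no more than 3 in any sample. UGT2B7 had 2 counts, 1 each in KD 2 and KD 3, and UGT2B28 had 2 counts, 1 each in KD 1 and OE 1. UGT2B10 had 0 counts in all 10 samples, which allows a level of up to 0.0117 CPM (3 counts over the summed libraries). Intervals and limits of this kind cover counting error only. The UGT2B15 share did not separate the groups, at 78.3% in NT (56.3 to 92.5) against 64.6% in KD (54.4 to 74), with 61.1% in EV (35.7 to 82.7) against 63.4% in OE (46.9 to 77.9).

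**Figure D1:**
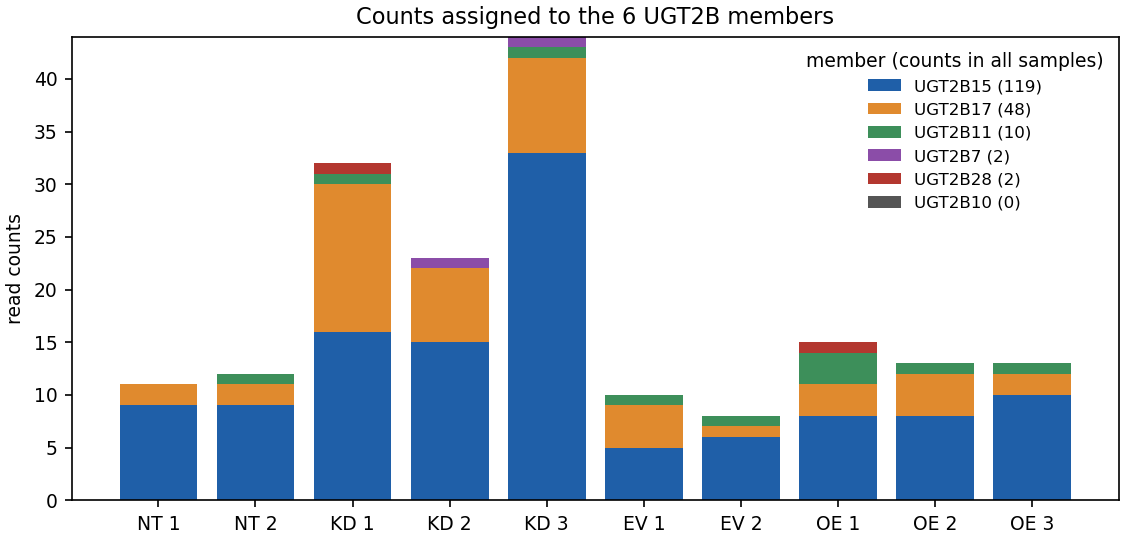
Stacked bars of the read counts of the 6 UGT2B members in each of the 10 samples, on a linear axis from 0; the number beside each name is its count in all samples. The 3 KD samples held 23 to 44 counts and the other 7 samples held 8 to 15.

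Set per kilobase of exon (RPKM, exons of all transcripts merged), SRD5A1 stood at 3.39 ± 0.0509 in NT against 4.65 ± 0.084 in KD, with 4.08 ± 0.0141 in EV against 4.17 ± 0.164 in OE (mean ± SD). SRD5A3 stood at 2.97 ± 0.112 RPKM in NT against 4.05 ± 0.165 in KD, with 3.21 ± 0.173 in EV against 3.97 ± 0.0737 in OE. UGT2B15 stood at 0.163 ± 0.00594 RPKM in NT against 0.359 ± 0.133 in KD, with 0.103 ± 0.0161 in EV against 0.167 ± 0.0161 in OE. UGT2B17 was lower again, at 0.144 ± 0.056 RPKM in KD and 0.0301 to 0.049 in the other groups. UGT2B15 and UGT2B17 were thus far below both reductases in every group. The order of the 2 reductases depends on the length used. With the longest transcript in place of the merged exons, SRD5A3 was above SRD5A1, at 7.68 against 5.04 RPKM in KD.

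SRD5A1, the 5-alpha-reductase, was higher in KD than in NT and about level between OE and EV. Its levels were 25.58 and 26.13 CPM in NT and 34.86, 36.14 and 35.46 CPM in KD. They were 31.08 and 31.24 CPM in EV and 30.87, 33.22 and 31.3 CPM in OE. KD lay above every other sample, NT lay below every other sample, and the OE and EV values overlapped. Such orders of samples, here and for the genes below, are descriptions only, since their share among all tested genes was not counted. SRD5A1 rose in KD versus NT by a log2 fold change of 0.46 ± 0.06 (SE), or 1.37-fold (edgeR quasi-likelihood test, adjusted p = 1.54e-06). In OE versus EV the log2 fold change was 0.03 ± 0.06 (adjusted p = 0.74). The interaction, which is the OE versus EV change minus the KD versus NT change, was -0.43 ± 0.09 (adjusted p = 0.00043) and missed the limit of 0.0001 that was used for calls here. The controls were also apart, with EV above NT by 0.27 ± 0.07 (adjusted p = 0.00463), and the EV values lay between those of NT and KD.

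SRD5A3, the polyprenol reductase, was higher in both the KD and the OE line than in their controls. Its levels were 22.3 and 23.51 CPM in NT and 32.56, 31.01 and 30.05 CPM in KD. They were 25.7 and 23.81 CPM in EV and 30.95, 29.92 and 30.84 CPM in OE. All KD and OE samples lay above all control samples, a separation whose share among all tested genes was not counted. KD and OE overlapped each other, while the EV values lay just above those of NT. SRD5A3 rose in KD versus NT by 0.45 ± 0.07, or 1.36-fold (adjusted p = 6.05e-06). In OE versus EV it was higher by 0.30 ± 0.07, or 1.23-fold, with an adjusted p of 0.000701 that passed 0.05 and not 0.0001. The interaction was -0.14 ± 0.10 (adjusted p = 0.253), and OE and KD differed by -0.03 ± 0.06 (adjusted p = 0.704). The antisense gene SRD5A3-AS1 had 2 to 6 counts per sample, and strand use in counting is not given in the sources used here.

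**Figure D2:**
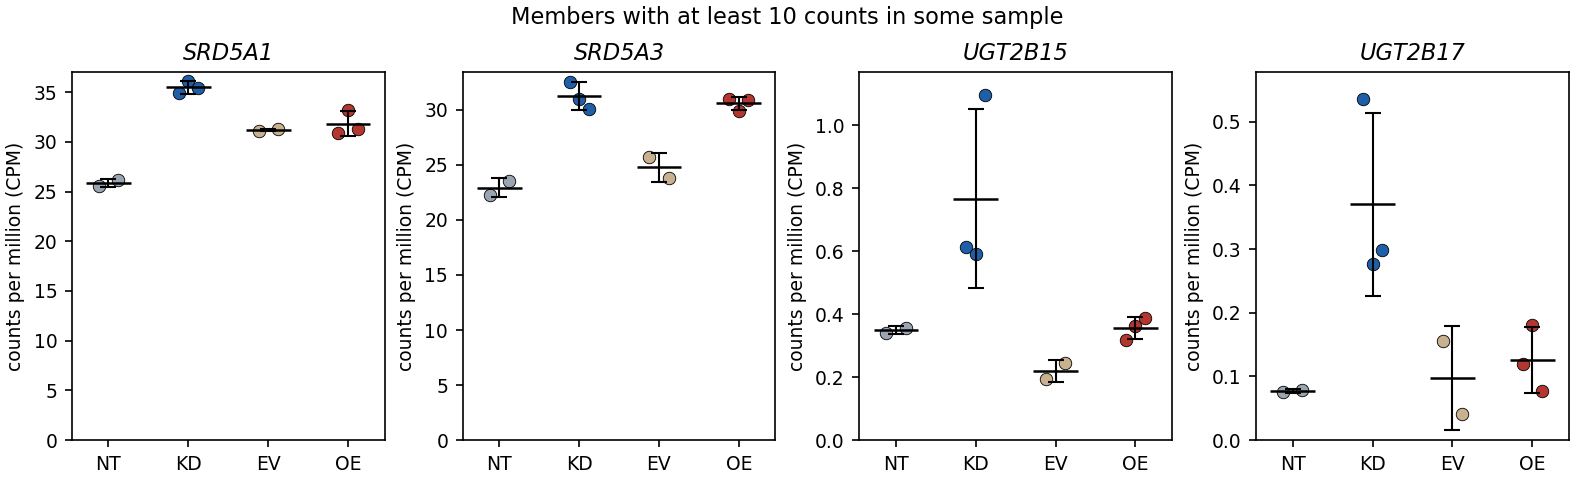
CPM (TMM-scaled, linear axes from 0, each panel its own scale) of the 4 members with at least 10 counts in some sample, by group; points are samples, long bars group means and capped bars the SD. KD lay above NT for SRD5A1 and SRD5A3, and OE lay above EV for SRD5A3, with 24.8 CPM in EV against 30.6 in OE. KD also lay above NT for UGT2B15 and UGT2B17, but these reached 10 counts mainly in KD samples. That choice of panels favours high KD values. The share of all genes that separate in this way was not counted.

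UGT2B15, which glucuronidates 5-alpha-reduced androgens, had its highest values in KD. The counts were 9 and 9 in NT against 16, 15 and 33 in KD, with 5 and 6 in EV against 8, 8 and 10 in OE. On the CPM scale that was 0.3396 and 0.3574 in NT against 0.6129, 0.5918 and 1.095 in KD, with 0.195 and 0.2434 in EV against 0.3191, 0.3621 and 0.3869 in OE. KD lay above all other samples, EV lay below all others, and OE overlapped NT. The log2 fold change was 1.15 ± 0.40 in KD versus NT (adjusted p = 0.0167), 0.69 ± 0.52 in OE versus EV (adjusted p = 0.283) and -1.12 ± 0.36 in OE versus KD (adjusted p = 0.00883). None of these passed 0.0001. Sample KD 3 carried much of the first difference, since without it the change was 0.78 (adjusted p = 0.128), and OE versus KD was then -0.75 (adjusted p = 0.109). UGT2B15 entered the test through the counts of the KD samples, so that a gene listed there had to be high in KD, and the fact that it was tested supports nothing.

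UGT2B17, its near-copy, had 2 and 2 counts in NT against 14, 7 and 9 in KD, with 4 and 1 in EV against 3, 4 and 2 in OE. It did not pass the filter on low counts. KD again lay above the other 7 samples, at 0.5363, 0.2762 and 0.2985 CPM against a highest value of 0.181 elsewhere, while NT, EV and OE overlapped. In a fit with no filter, over 32727 genes, UGT2B17 was 2.19 ± 0.76 higher in KD versus NT (adjusted p = 0.0145) and -1.53 ± 0.61 in OE versus KD (adjusted p = 0.0403). Its OE versus EV change in that fit was 0.31 ± 0.89 (adjusted p = 0.935).

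Summed over the 6 UGT2B genes, the counts were 11 and 12 in NT against 32, 23 and 44 in KD, with 10 and 8 in EV against 15, 13 and 13 in OE. The sum was thus at 0.446 ± 0.0436 CPM in NT against 1.2 ± 0.277 in KD, with 0.357 ± 0.0463 in EV against 0.563 ± 0.0524 in OE. The groups did not overlap in these values, although EV versus NT was -0.31 ± 0.46 in the test (adjusted p = 0.649). How common such a separation is among all genes was not counted, so it is a description only. The sum was 1.43 ± 0.34 higher in KD than in NT, or 2.69-fold (adjusted p = 0.000776), and 1.10 ± 0.28 lower in OE than in KD (adjusted p = 0.00182). OE versus EV was 0.64 ± 0.41 (adjusted p = 0.195), and the interaction was -0.79 ± 0.55 (adjusted p = 0.262). Across the alternatives the adjusted p for KD versus NT ran from 0.000127 to 0.0151.

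**Figure D3:**
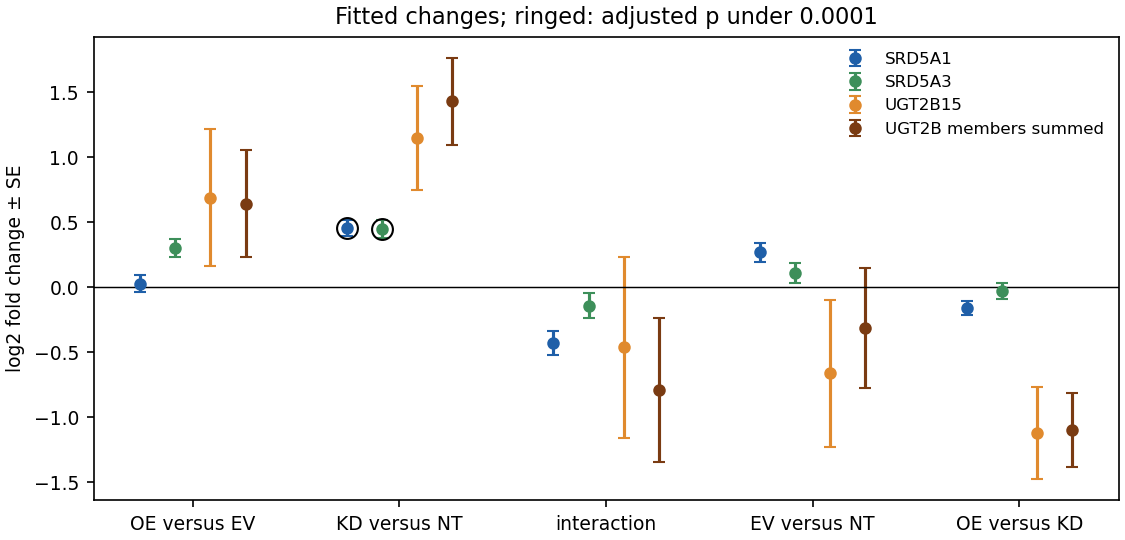
Log2 fold change with its SE for SRD5A1, SRD5A3, UGT2B15 and the UGT2B sum in the 5 comparisons; rings mark an adjusted p under 0.0001. The rings sit on SRD5A1 (0.46) and SRD5A3 (0.45) in KD versus NT, and the bars of the UGT2B rows are several times longer than those of the reductases.

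Of the 8 members, 3 passed the filter on low counts (SRD5A1, SRD5A3 and UGT2B15). In KD versus NT, SRD5A1 and SRD5A3 were called at 0.0001, where 29.1% of all 17230 tested genes were called. No member was called in OE versus EV (21.9% of tested genes), in the interaction (15.9%), in EV versus NT (8.16%) or in OE versus KD (31.9%). At an adjusted p of 0.05 the members were SRD5A3 in OE versus EV (52% of tested genes), SRD5A1, SRD5A3 and UGT2B15 in KD versus NT (57.5%), SRD5A1 in the interaction (44.3%) and in EV versus NT (34.1%), and UGT2B15 and SRD5A1 in OE versus KD (59.8%). With shares of this size among all genes, the calls do not set the members apart. SRD5A1 and SRD5A3 had a Pearson r of 0.812 over the 10 samples in log2 CPM, and UGT2B15 had 0.552 and 0.54 with them, all given as descriptions over samples that fall into the same 4 groups.

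The changes of both reductases kept their size when an NT sample was left out, while some calls were lost. Without NT 1, the adjusted p in KD versus NT was 0.000189 for SRD5A1 and 0.000755 for SRD5A3, and the changes were 0.44 and 0.41. Without NT 2, that of SRD5A3 was 0.000124 with a change of 0.49, and SRD5A1 kept its call (0.47, adjusted p = 8.11e-05). Calls over all genes fell from 5022 to 3110 and 3278 in the same fits. The stroma list had a summed level of 90.1 to 92.9 CPM in NT against 41.6 to 56.7 in the other groups. That difference was mainly VIM (81 CPM in NT, 31.5 to 36.2 elsewhere), and the list did not move as a whole. Within that list COL1A1, a collagen, rose by 0.63 in KD versus NT (adjusted p = 9.67e-06, lost without NT 1). COL3A1, also a collagen, stood at 0.717 CPM in NT against 1.69 in KD, with 0.317 in EV against 0.212 in OE. Its change in KD versus NT was 1.23 (adjusted p = 0.00172) and was not called. COL1A2 was at 0 in every sample, and the part of the VIM difference in the results was not tested.

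Supply of the sugar donor was measured over 5 genes, all tested, of which UGDH was the one that moved in both arms. UGDH makes UDP-glucuronate from UDP-glucose. It stood at 30 and 30.8 CPM in NT against 38.7, 37.1 and 42.4 in KD, with 30.1 and 31.1 in EV against 19.1, 21 and 20.9 in OE, so KD was the highest group and OE the lowest, with no overlap. It rose by 0.38 in KD versus NT (adjusted p = 5.76e-05, a call lost in 6 of 10 fits that leave out 1 sample) and fell by 0.59 in OE versus EV (adjusted p = 4.25e-07). The interaction was -0.97 ± 0.10 (adjusted p = 3.7e-08). SLC35B1, a transporter of the endoplasmic reticulum, rose by 0.35 in OE versus EV (adjusted p = 1.1e-05), a call lost without either EV sample. UXS1, which uses up UDP-glucuronate, had an interaction of -0.33 (adjusted p = 0.00933). Over all tested genes, 16.4% were called higher and 12.8% lower in KD versus NT, and 11.6% higher and 10.3% lower in OE versus EV, and the counts of this and the next lists stand beside those shares. In KD versus NT 1 of the 5 rose and none fell, with a median log2 fold change of 0.273 against -0.0196 over all tested genes.

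Most other glucuronosyltransferases had few counts too. Of 14 genes listed, 12 failed the filter, among them UGT2B4 with 5 counts over all samples and UGT1A6 with 10. UGT2A1, UGT2A2 and UGT2A3 had none. The listed UGT1A genes overlap each other up to a shared end on chromosome 2, as UGT2A1 and UGT2A2 do on chromosome 4. Reads there may fit several genes, and how such reads were counted is not given. The low counts of these genes therefore do not show low expression. Both tested genes rose in KD versus NT and neither was called in OE versus EV. UGT8, a galactosyltransferase of myelin lipids, was at 5.91 CPM in NT against 13.7 in KD, with 10 in EV against 6.85 in OE. It rose by 1.21 in KD versus NT (adjusted p = 2.12e-09), with an interaction of -1.75 (adjusted p = 3.83e-09). GUSB, the lysosomal enzyme that takes glucuronic acid off again, rose by 0.34 in KD versus NT (adjusted p = 4.11e-05), a call lost in 5 of 10 leave-out fits. It stood at 47.4 CPM in NT against 60.1 in KD, with 64.9 in EV against 69 in OE, so NT was the lowest group. EV versus NT was also called for GUSB (0.45) and UGT8 (0.76), each lost in some leave-out fits. In that comparison 5.25% of all tested genes were called higher.

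The list of steroid reduction and oxidation had calls in both directions, 6 higher and 2 lower in OE versus EV and 4 higher and 3 lower in KD versus NT, of 16 tested among 27. The 6 higher in OE versus EV were HSD3B7, HSD17B7, HSD17B8, TECR, HSD11B2 and AKR1C2. The list also holds enzymes of other lipids, HSD17B12 among them, so its counts are not counts of steroid hormone enzymes alone. The other 5-alpha-reductase, SRD5A2, had 4 counts in all samples, and AKR1C3, HSD3B1 and HSD17B3 had 28, 19 and 3. HSD11B2, which inactivates cortisol, rose in OE versus EV by 0.57 (adjusted p = 1.89e-07). In KD versus NT it fell by 0.55 (adjusted p = 1.67e-07). HSD17B6, which oxidises androstanediol back to active androgen, had 1.22 CPM in NT against 3.99 in KD, with 2.34 in EV against 4.12 in OE. It rose by 1.70 in KD versus NT (adjusted p = 8.09e-08), while OE versus EV was 0.82 (adjusted p = 0.000359).

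HSD17B14, an oxidiser of oestradiol and androgens, was lower in both the OE and the KD line than in their controls. Its change was -1.19 in OE versus EV (adjusted p = 2.78e-06, lost without either EV sample) and -1.37 in KD versus NT (adjusted p = 2.95e-07). HSD17B12, of fatty acid elongation, fell in OE versus EV by 0.88 (adjusted p = 1.43e-09), with -0.05 in KD versus NT (adjusted p = 0.562). AKR1C2, which reduces dihydrotestosterone to androstanediol, had 24 and 17 counts in NT against 6, 4 and 5 in KD, with 6 and 2 in EV against 26, 30 and 26 in OE. It rose by 2.79 in OE versus EV (adjusted p = 1.42e-05, lost without either EV sample), and its change in KD versus NT was -2.08 (adjusted p = 0.0002). The interaction of AKR1C2 was 4.87 ± 0.62 (adjusted p = 7.9e-07). AKR1C1, a near-identical copy, had 27 and 11 counts in NT and 1 to 5 in all other samples. It fell by 3.48 in KD versus NT (adjusted p = 2.59e-05, lost without NT 1, KD 1 or KD 3). Reads that fit both copies may be split between them or left out, so each value is uncertain.

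**Figure D4:**
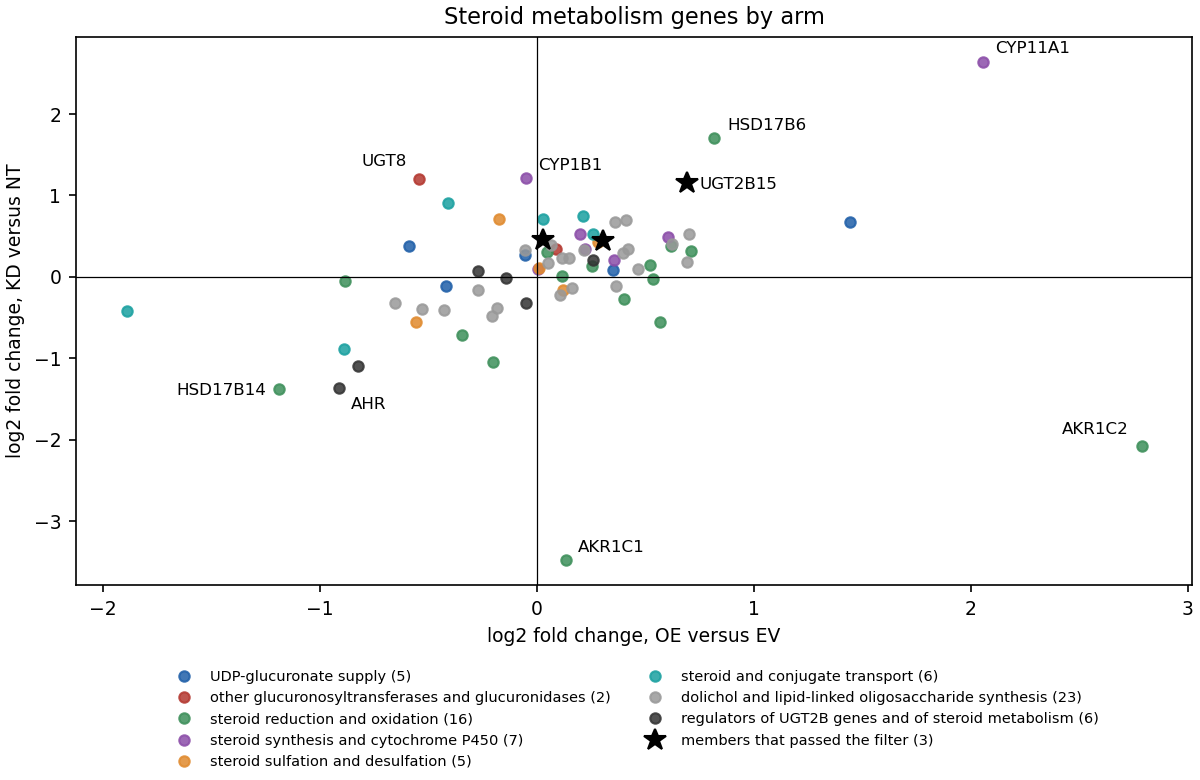
Log2 fold change in OE versus EV (horizontal) against KD versus NT (vertical) for the tested genes of 8 steroid metabolism lists, coloured by list with the number tested in brackets; stars are the 3 tested members, and the labelled list genes passed 0.0001 with a change of at least 1 in either arm. CYP11A1 is at 2.06 and 2.64, and AKR1C2 at 2.79 and -2.08.

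Of 7 tested genes of steroid synthesis and cytochrome P450, 5 rose in KD versus NT and 3 in OE versus EV, and none fell, beside 16.4% and 11.6% of all tested genes called higher. CYP11A1, the side-chain cleavage enzyme that opens steroid synthesis, was at 0.679 and 0.437 CPM in NT against 3.98, 4.02 and 2.65 in KD, with 0.507 and 0.527 in EV against 2.43, 2.08 and 1.97 in OE. It rose by 2.64 in KD versus NT (adjusted p = 1.04e-08) and by 2.06 in OE versus EV (adjusted p = 4.63e-06, lost without either EV sample). CYP17A1, needed for androgens further down that route, had 1 count in all samples. CYP1B1, an oestrogen hydroxylase, rose by 1.21 in KD versus NT (adjusted p = 2.81e-09) and was at -0.05 in OE versus EV (adjusted p = 0.732). CYB5A, an electron carrier for CYP17A1, rose by 0.53 in KD versus NT (adjusted p = 1.59e-09). STARD3, a cholesterol carrier, rose by 0.35 in OE versus EV (adjusted p = 3.61e-05), a call lost without any 1 of the EV or OE samples.

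Sulfation, the other route of steroid conjugation, had 5 tested genes of 9. STS, the sulfatase that releases steroids from their sulfates, rose by 0.72 in KD versus NT (adjusted p = 4.13e-07), and its interaction was -0.89 (adjusted p = 5.99e-06, lost without NT 1). SULT1A1 fell in both arms. SUMF1 and PAPSS1, which activate sulfatases and make the sulfate donor, had interactions of 0.27 (adjusted p = 0.00964) and -0.10 (adjusted p = 0.384). Of 6 tested transporters, 4 rose and 1 fell in KD versus NT, and 2 fell in OE versus EV. ABCC4, an exporter of conjugated steroids, was at 208 CPM in NT against 390 in KD, with 467 in EV against 352 in OE. It rose by 0.91 in KD versus NT (adjusted p = 9.79e-14) and fell by 0.41 in OE versus EV (adjusted p = 1.06e-07). ABCC1 rose by 0.75 in KD versus NT (adjusted p = 3.84e-12) and SLCO3A1 by 0.71 (adjusted p = 8.4e-07). EV exceeded NT for ABCC4 and ABCC1, which stood at 282 against 128 CPM.

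The dolichol and lipid-linked oligosaccharide list, the route of SRD5A3, was tested for all 23 of its genes. In OE versus EV 8 rose and 1 fell, and in KD versus NT 5 rose and 1 fell, with medians of 0.149 and 0.189. The 9 calls in OE versus EV stand against 21.9% of all tested genes called and the 6 in KD versus NT against 29.1%, so the list's share in KD versus NT is near the background. DPM3, a subunit of dolichol-phosphate mannose synthase, rose by 0.69 in OE versus EV (adjusted p = 1.56e-07). Its partner subunit DPM1 went the other way, by -0.655 (adjusted p = 7.33e-07), and was the 1 gene of the list that fell. DPM2 was at 0.22 (adjusted p = 0.00178) and was not called, so the subunits did not move together. The mannosyltransferases ALG3 and ALG2 rose in OE versus EV by 0.47 (adjusted p = 6.54e-07, lost without EV 2) and 0.37 (adjusted p = 4.33e-06, lost without either EV sample). In KD versus NT, DPM3, ALG3 and ALG2 were at 0.19, 0.09 and -0.12, all with an adjusted p above 0.05. ALG2 was the gene of the list with a called interaction (0.48, adjusted p = 1.43e-05, lost without NT 1, NT 2 or EV 1).

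Among 13 regulators of UGT2B genes and steroid metabolism, 6 were tested, of which 1 rose in OE versus EV and 1 fell in KD versus NT. AHR, the dioxin receptor, fell by 1.37 in KD versus NT (adjusted p = 2.64e-07) and was at -0.91 in OE versus EV (adjusted p = 0.000371). POU2F1 and NFE2L2 had interactions of -0.34 (adjusted p = 0.0125) and 0.27 (adjusted p = 0.0234). FOXA1 was at 428 CPM in NT against 494 in KD, with 519 in EV against 622 in OE. HNF4A, a regulator of liver genes, had 30 counts in all samples.

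**Figure D5:**
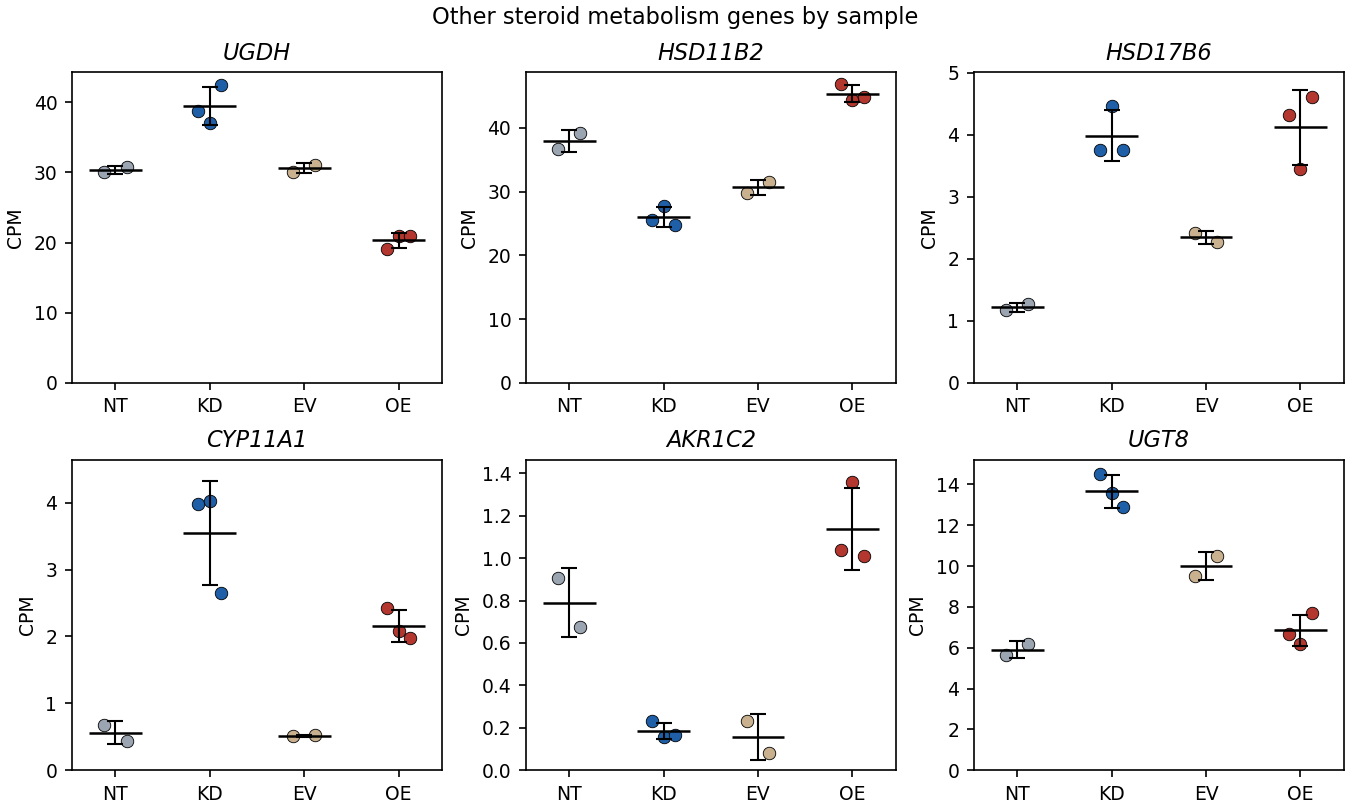
CPM by group of UGDH, HSD11B2, HSD17B6, CYP11A1, AKR1C2 and UGT8 on linear axes from 0, each with its own scale; points are samples, long bars means and capped bars the SD. UGDH was highest in KD and lowest in OE, and UGT8 was highest in KD and about level between NT and OE. HSD11B2 was highest in OE and lowest in KD, and CYP11A1 was high in both the KD and the OE line.

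Androgen-induced genes, known to move opposite to UGT2B15 and UGT2B17 when androgen is given, rose in KD versus NT (5 of 5). They also rose in EV versus NT (5 of 5), where 5.25% of all tested genes were called higher. The STEAP4 call in EV versus NT was lost without NT 1 or either EV sample. In OE versus EV, 2 rose and 1 fell. FKBP5, a chaperone of steroid receptors, stood at 97.8 CPM in NT against 359 in KD, with 275 in EV against 179 in OE. FKBP5, STEAP4 and TMPRSS2 had called interactions of -2.50, -2.20 (lost without NT 1) and -0.59. The kallikreins KLK3 and KLK2 were the 2 that rose in OE versus EV, by 0.77 (adjusted p = 5.12e-11) and 0.72 (adjusted p = 2.16e-10). Their interactions were -0.08 (adjusted p = 0.402) and -0.06 (adjusted p = 0.579).

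Around the UGT2B cluster, within 1 Mb of its outermost members, 5 of the 44 genes in the table were tested. UBA6 fell by 0.47 in KD versus NT (adjusted p = 7.34e-05), and YTHDC1 fell by 0.38 in OE versus EV (adjusted p = 3.83e-06, lost without EV 2). ODAM had 4 and 8 counts in NT against 47, 31 and 47 in KD, with 7 and 0 in EV against 27, 7 and 14 in OE, and rose by 2.69 in KD versus NT (adjusted p = 7.25e-05, lost in 5 of 10 leave-out fits). The median of the 5 was -0.215 in KD versus NT.

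The 8 genes whose log2 CPM followed UGT2B15 most closely over the 10 samples, among 12608 candidates, were BROX (r 0.97), PLA2G7 (0.954), KIF18A (0.952), TOP2A (0.937), ASPM (0.935), CENPF (0.933), CIAO2A (0.93) and CKAP2 (0.928). TOP2A, a DNA topoisomerase, stood at 88.7 CPM in NT against 170 in KD, with 66.1 in EV against 90.7 in OE, and CENPF, a kinetochore protein, at 88.1, 205, 67.7 and 88.6. Likeness to UGT2B15 is what chose these genes, so their order of groups is not a result. These values are descriptions over 4 groups, against a gene with 5 to 33 counts per sample, and many candidates were compared.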

How the data were processed

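RNA of 10 LNCaP-C4-2 samples was prepared with a poly(A) library kit and sequenced as paired reads of 150 bp. Per the labels and methods, the authors discarded trimmed reads under 50 bp. STAR 2.6.0a served for both alignment and counting, with Ensembl release 96 on hg38. The deposited values are whole-number counts per gene and were used as such; strand and multimapping rules are not given in the sources used here. Totals were 23555205 to 28615770, and the common biological coefficient of variation was 0.0446.

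All 10 samples were fitted in 1 model (R 4.3.3, edgeR 4.0.16, TMM scaling, filterByExpr, quasi-likelihood F test, Benjamini-Hochberg over 17230 genes), with a call limit of 0.0001, the study's own. SE is the log2 fold change over the root of F. Alternatives used DESeq2 1.42.0, limma 3.58.1, other scalings, filters and leave-outs. The pipeline was tested on simulated data. Gene positions and windows came from GENCODE on GRCh38, promoters from RefSeq (6 of 8 members matched).

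Members, lists and tests were chosen with earlier results of these data known. All members are named. List genes were named where called in either arm with a log2 size of 1 or more, or among the 3 smallest interaction p-values of a list. Around the UGT2B cluster, genes were instead named where called in either arm, which leaves out CENPC and TMPRSS11E. Likeness used genes with a mean log2 CPM of at least 1. SULT1A1, SRD5A2, FOXA1 and other genes outside these rules were added after their values were seen. Some list genes and motifs are not reported here.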

Additional observations from a re-analysis of the deposited data

How the results depend on the processing

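The members called in KD versus NT numbered 0 to 2 when 1 sample was left out (0 without NT 1, 1 without NT 2) and 0 when a log2 fold change of at least 1 was also asked. At an adjusted p of 0.05, the members called numbered 2 in OE versus KD and 1 each in OE versus EV, EV versus NT and the interaction, and the UGT2B sum then passed in KD versus NT (1.43) and in OE versus KD (-1.10). With scaling by library size only, SRD5A1 was called in the interaction (1 member, -0.56, adjusted p = 2.52e-05); that scaling moved the median of all genes to -0.117 in OE versus EV, -0.151 in the interaction and -0.148 in OE versus KD, and the calls from 2004 higher and 1774 lower to 1220 and 2168, from 1196 and 1548 to 693 and 2127, and from 2670 and 2820 to 1663 and 3705. The SRD5A1 change in OE versus EV turned to -0.0699 under it and ran from -0.00165 (without OE 2) to 0.04995 when samples were left out. SRD5A3 in OE versus KD was -0.159 under it (adjusted p = 0.0249, against -0.03) and ran from -0.05367 to 0.00794 (without KD 1) when samples were left out. The cause was not tested.

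Calls over all genes in OE versus EV fell to 1740 and 2065 from 3778 without EV 2 or EV 1, in KD versus NT to 3110 and 3278 from 5022 without NT 1 or NT 2, and in the interaction to 1786 and 1793 from 2744 without NT 1 or EV 2. Without KD 2 they rose to 4969 in OE versus EV, 3696 in the interaction and 2438 in EV versus NT. In EV versus NT they ran from 509 (without EV 1; 554, 620 and 631 without NT 1, EV 2 and NT 2) to 2438, against 1406, and were 2306 with no filter. A log2 fold change of at least 1 left 506, 1186, 962, 256 and 1075 calls for OE versus EV, KD versus NT, interaction, EV versus NT and OE versus KD, in this order.

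Samples with the same replicate number did not deviate together (mean r -0.0028 over 13 pairs, 0.0016 over 24 others). A fit with the replicate number as a block gave 0.46 for SRD5A1 in KD versus NT (adjusted p = 1.36e-06), 0.46 for SRD5A3 and 1.34 for the UGT2B sum (adjusted p = 0.00328); UGT2B15 was at 0.88 (adjusted p = 0.0875).

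DESeq2's own test gave UGT2B15 in KD versus NT an adjusted p of 0.0805. Counts of 0 to 3 per sample limit what can be seen: a difference in UGT2B7, UGT2B10, UGT2B11 or UGT2B28 was not detectable at this depth.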
